A study of Mus musculus with 11 samples.

Results

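The genes described here are 10 mouse genes of iron storage and transport, namely Fth1, Ftl1, Tfrc, Trf, Slc40a1, Slc11a1, Slc11a2, Hmox1, Ireb2 and Hamp. They were matched by symbol to the Ensembl identifiers of the count tables, and all 10 were found among 25006 genes. RNA was measured by stranded mRNA sequencing of the left ventricle in 11 mouse libraries, in a study of what Vegfc made by myeloid cells does after myocardial infarction (MI). The groups were naive Vegfc fl/fl hearts (naive control, libraries M44 and M45), naive Vegfc fl/fl; LysMCre hearts (naive Vegfc-deficient, M149, M150, M34), and the same genotypes after MI (MI control, M006, M38, M40, and MI Vegfc-deficient, M35, M900, M913). Where a group's values are listed they follow this order of libraries. MI was made by permanent ligation of the left anterior descending coronary artery, infarcted tissue was taken at day 9, and naive hearts gave tissue of like mass from the same area. All 4 groups carried floxed Vegfc by the genotype labels, while the protocol text describes the controls as LysMCre mice, so whether the controls carried Cre was not settled. LysMCre is expressed from the Lyz2 locus in macrophages and other myeloid cells. The design is meant to delete Vegfc there and not in the other cells of the heart. The extent of deletion was not measured here.

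Iron is held inside ferritin, a shell built of heavy (Fth1) and light (Ftl1) chains, and circulates on transferrin (Trf). Cells take up transferrin through its receptor (Tfrc) and release iron through ferroportin (Slc40a1), which the hormone hepcidin (Hamp) removes from the membrane. Iron regulatory proteins, among them the product of Ireb2, bind a hairpin called the iron-responsive element when iron is low, which blocks translation from a 5′ element and protects the messenger that carries 3′ elements. Macrophages recycle iron from red cells and dead cells, with heme oxygenase 1 (Hmox1) opening the heme ring and Slc11a1 (NRAMP1) moving the metal out of the phagosome.

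The hairpins are shown because Fth1, Ftl1, Slc40a1 and Tfrc carry them at different ends of the messenger. The letters CNNNNNCAGTGN were searched on the transcript strand of 1 principal coding transcript per gene (GENCODE M21, GRCm38), with the 5 bases after the loop required to pair with the 5 bases before it, G-T pairs included. In each line the 6 loop bases are in capitals and the name gives the gene and its untranslated region.
Fth1, 5′ region: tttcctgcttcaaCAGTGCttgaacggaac
Ftl1, 5′ region: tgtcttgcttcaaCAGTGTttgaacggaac
Slc40a1, 5′ region: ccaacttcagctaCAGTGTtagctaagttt
Tfrc, 3′ region, element 1: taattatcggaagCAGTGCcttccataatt
Tfrc, 3′ region, element 2: acattatcgggagCAGTGTcttccataatg
Tfrc, 3′ region, element 3: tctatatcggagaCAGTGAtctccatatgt
Tfrc, 3′ region, element 4: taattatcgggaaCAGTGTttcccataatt
The Fth1 element lies at chr19:9982731-9982760 on the plus strand, the Ftl1 element at chr7:45459779-45459808 on the minus strand and the Slc40a1 element at chr1:45925465-45925494 on the minus strand. The 4 Tfrc elements lie on the plus strand of chromosome 16, at chr16:32631218-32631247, chr16:32631597-32631626, chr16:32631662-32631691 and chr16:32631709-32631738. Among all genes searched, 0.107% of 19602 5′ regions and 0.542% of 20107 3′ regions held such a hairpin. The other 6 members held no match with all 5 pairs. The letters alone stood in the 3′ regions of Slc11a1 (1 match), Slc11a2 (2) and Ireb2 (2), without the full stem, and in neither region of Trf, Hmox1 or Hamp. The 3′ region of Tfrc held 5 matches of the letters, 4 of them with the full stem, and that of Fth1 held 1 without it. A hairpin whose stem lacks any of the 5 pairs was not counted by this search.

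Total counts per library were 10824989 to 26782728, and the low-count filter of edgeR kept 14779 genes. Levels are given as CPM, the counts scaled to library size with the TMM method. A member is called, and said to have risen or fallen, at a Benjamini-Hochberg adjusted p under 0.05 over all genes kept, from the quasi-likelihood test of edgeR with all 11 libraries in 1 model. Of the 10 members 9 passed the filter, and Hamp did not. Sex differed with MI, since Xist ran from 0.624 to 11.8 CPM over the 5 naive libraries and from 188 to 403 CPM over the 6 MI libraries, while the summed Y-linked genes were at 152 to 195 CPM and at most 1.84 CPM. Effects of MI and of sex therefore cannot be told apart in any comparison of MI with naive hearts. The level of Vegfc, which cells other than myeloid ones also express, was 25.1 to 34.7 CPM in naive control, 27.5 to 34.5 CPM in naive Vegfc-deficient, 21.9 to 45.5 CPM in MI control and 22.4 to 29.4 CPM in MI Vegfc-deficient hearts, and the groups overlapped. Lyz2, whose own copy is disrupted where Cre is inserted, was at 2121 and 2282 CPM in naive control and 4538 to 5380 CPM in MI control hearts. Among libraries labelled Vegfc-deficient, it was at 12.4 to 245 CPM in 4, but at 4565 CPM in M149 (naive), above the naive controls, and at 1392 CPM in M35 (MI). Lyz2 in these 2 libraries is high for their genotype label, and member calls after MI that change without both are given beside each result. The summed level of 8 cardiomyocyte markers was 64091 to 90980 CPM in naive and 2422 to 24606 CPM in MI libraries. For 8 macrophage markers it was 1346 to 2024 CPM and 1874 to 4780 CPM, and for 7 fibroblast markers 4786 to 6674 CPM and 29886 to 47496 CPM, with no marker of these 3 lists at 0. For 9 lung epithelium and alveolar macrophage markers the sum was 587 and 610 CPM in naive control, 1700 CPM in M149, 27.7 and 56.6 CPM in M150 and M34, and 6.01 to 32.7 CPM in the MI libraries, with Sftpa1 at 0 in all libraries. For 7 red cell markers it was 1093 to 4384 CPM in naive and 309 to 1375 CPM in MI libraries.

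Per kilobase of its principal transcript, Fth1 was the highest of the 10 members in all 4 groups and Ftl1 the next. The level of Fth1 was 6520 ± 543 CPM per kilobase (SD, n = 2) in naive control and 3018 ± 789 CPM per kilobase in Vegfc-deficient hearts after MI (SD, n = 3). That of Ftl1 was 588 ± 69.9 (SD, n = 2) and 1121 ± 456 CPM per kilobase (SD, n = 3) in the same groups. Trf, Hmox1, Tfrc and Slc11a1 followed in naive control hearts, at 108, 41.4, 29.6 and 19.5 CPM per kilobase. Slc11a2, Ireb2 and Slc40a1 stood between 5.72 and 8.20 CPM per kilobase there. The largest move in this order was that of Tfrc, which held rank 5 in naive control, rank 4 in naive Vegfc-deficient and rank 9 in both MI groups, in the last at 3.43 ± 1.61 and 3.39 ± 1.99 CPM per kilobase (SD, n = 3). Neighbours such as Slc11a2, at 8.20 ± 0.455, and Ireb2, at 7.33 ± 0.392 CPM per kilobase in naive control hearts (SD, n = 2), were too close to order.

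**Figure D1:**
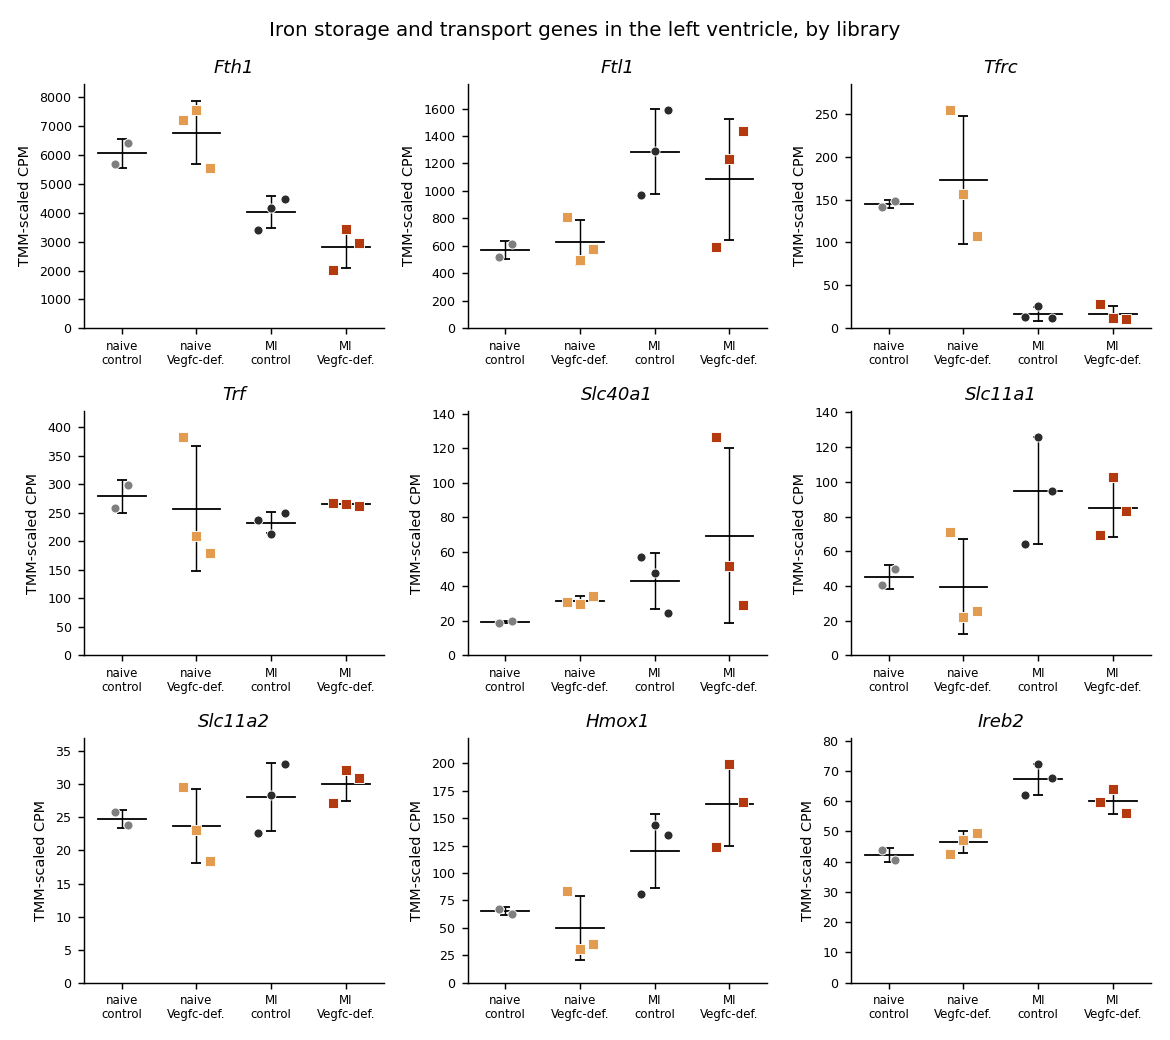
Level of the 9 tested members in each library, in TMM-scaled CPM on linear axes from 0, by group. Points are libraries, horizontal lines group means and bars SD (n = 2 for naive control, n = 3 otherwise), and Tfrc sits at 10.4 to 27.8 CPM in the 6 MI libraries against 108 to 254 CPM in the 5 naive ones.

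The iron uptake receptor showed the largest difference of all members between MI and naive hearts. Tfrc was at 141 and 148.5 CPM in naive control and 254, 156 and 108 CPM in naive Vegfc-deficient hearts. After MI it was at 12.7, 25.9 and 11.8 CPM in control and 27.8, 11.5 and 10.4 CPM in Vegfc-deficient hearts. Every MI library lay below every naive library. The log2 fold change was -3.11 (SE 0.50, edgeR adjusted p = 8.79e-04) in control hearts and -3.39 (SE 0.48, edgeR adjusted p = 2.61e-04) in Vegfc-deficient hearts. The cardiomyocyte marker sum was also lower in every MI library than in every naive one. Of these markers 8 of 8 fell in control and 7 of 8 in Vegfc-deficient hearts, where 24.1% and 27.7% of all tested genes fell. Among the naive libraries, M149 had the highest Tfrc (254 CPM) and the lowest cardiomyocyte marker sum (64091 CPM). Per 1000 cardiomyocyte marker reads, Tfrc gave 1.52 to 3.97 reads in naive and 1.02 to 4.86 reads in MI libraries, and on that scale the groups overlapped. In whole tissue, fewer cells of a type and less RNA per cell cannot be told apart.

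In control hearts 2 of 9 tested members rose after MI, where 26.3% of all tested genes rose, and 1 fell, where 24.1% of all tested genes fell. In Vegfc-deficient hearts 3 of 9 rose, where 30.0% of all tested genes rose, and 2 fell, where 27.7% fell. These shares are near the background in both genotypes. The median log2 fold change of the 9 members was 0.67 in control and 0.37 in Vegfc-deficient hearts, against 0.13 and 0.10 over all genes tested.

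**Figure D2:**
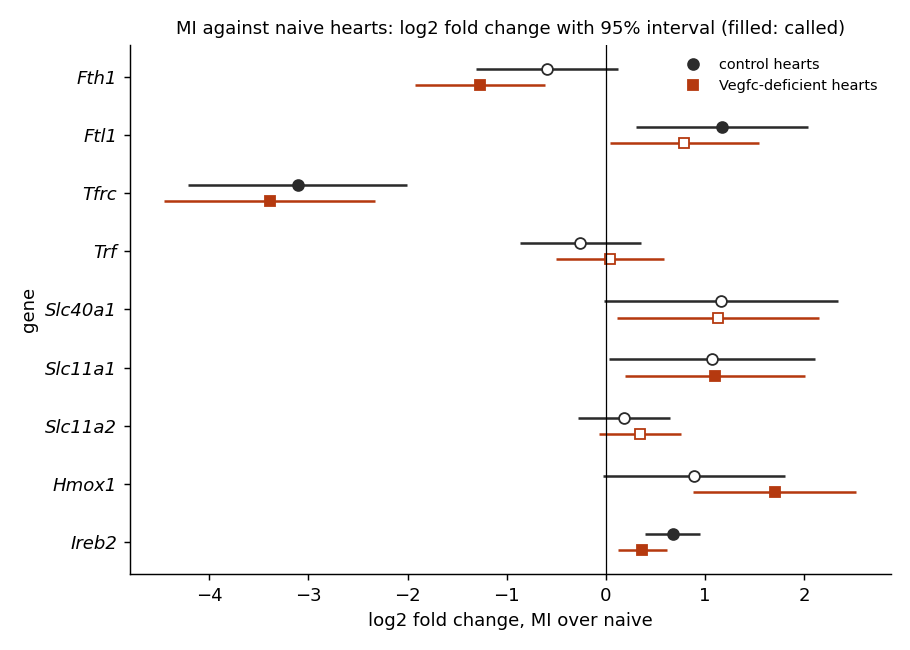
Log2 fold change of MI over naive hearts for the 9 tested members, with 95% intervals from edgeR's fit, in control hearts (circles) and Vegfc-deficient hearts (squares). Filled symbols mark an adjusted p under 0.05, and the intervals of the genotypes overlap for each member.

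The ferritin chains differed in sign, with Fth1 lower and Ftl1 higher after MI, each called by edgeR in 1 genotype. Fth1, the ferroxidase chain that oxidises iron for storage, was at 5700.1 and 6414 CPM in naive control and 7217, 7559 and 5532 CPM in naive Vegfc-deficient hearts. It was at 3402, 4146 and 4487 CPM in MI control and 2005, 3444 and 2963 CPM in MI Vegfc-deficient hearts. All MI libraries lay below all naive ones. Per 1000 cardiomyocyte marker reads, however, Fth1 gave 77.7 to 113 reads in naive and 81.5 to 1852 reads in MI libraries. Its log2 fold change was -1.27 (SE 0.29, edgeR adjusted p = 0.00427) in Vegfc-deficient hearts, where it fell, and -0.59 (SE 0.32, edgeR adjusted p = 0.146, 95% interval -1.31 to 0.12) in control hearts, where edgeR did not call it and DESeq2 did (-0.65, DESeq2 adjusted p = 0.0197).

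Ftl1, the light chain that helps the mineral core form, was at 522 and 617 CPM in naive control and 811, 495 and 577 CPM in naive Vegfc-deficient hearts. It was at 971, 1294 and 1591 CPM in MI control and 589, 1232 and 1434 CPM in MI Vegfc-deficient hearts. The control groups did not overlap, while in Vegfc-deficient hearts M35 lay below M149. Ftl1 rose in control hearts (log2 fold change 1.17, SE 0.39, edgeR adjusted p = 0.0288). In Vegfc-deficient hearts its log2 fold change was 0.79 (SE 0.34, edgeR adjusted p = 0.0674). It was called there by DESeq2 (0.73, DESeq2 adjusted p = 0.0459) and by limma-voom (1.04, limma adjusted p = 0.00539). By edgeR it was called without M149 (edgeR adjusted p = 0.0430), without M35 (edgeR adjusted p = 0.00773) and without both (1.31, edgeR adjusted p = 0.00354). The call in control hearts was lost without M44, M45, M38 or M40, with edgeR adjusted p of 0.159, 0.0980, 0.0611 and 0.0727. Per 1000 macrophage marker reads Ftl1 gave 350 to 423 reads in naive and 271 to 403 reads in MI libraries.

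The share of Fth1 among all ferritin reads does not depend on the scaling between libraries. It was 91.6% and 91.2% in naive control and 89.9%, 93.9% and 90.6% in naive Vegfc-deficient hearts. After MI it was 77.8%, 76.2% and 73.8% in control and 77.3%, 73.7% and 67.4% in Vegfc-deficient hearts. The 6 MI libraries lay below the 5 naive ones, with group means of 91.4% ± 0.280 (SD, n = 2), 91.4% ± 2.12, 75.9% ± 2.00 and 72.8% ± 5.01 (SD, n = 3 each) for the control and Vegfc-deficient hearts before and then after MI. In M35 this share was within the range of the MI control libraries, although its Fth1 and Ftl1 levels were the lowest of the 6 MI libraries. Among these 6, M35 also had the highest cardiomyocyte marker sum (24606 CPM) and the lowest macrophage marker sum (1874 CPM). The share was described and not tested. The files hold 7 ferritin copies and pseudogenes with at most 1 read per library, so reads that also match a copy may have been left out by the counting, and the level of Ftl1 against Fth1 is uncertain to that extent.

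**Figure D3:**
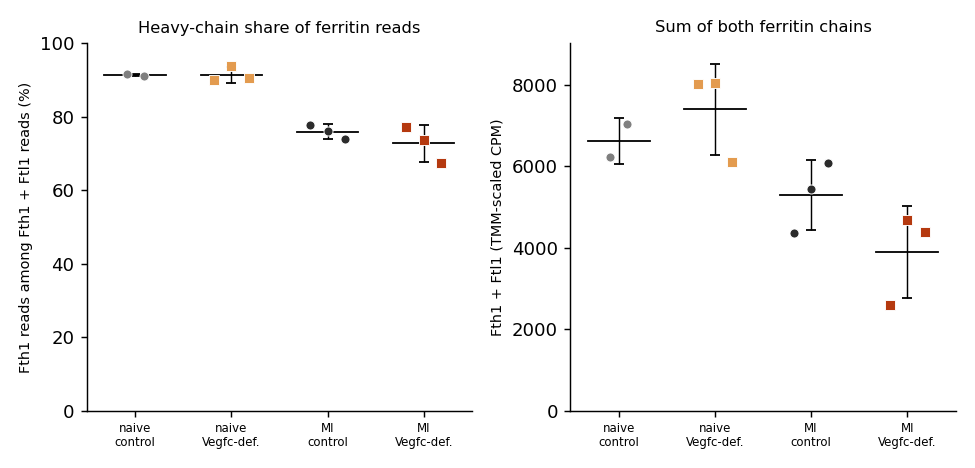
Left, percent of Fth1 among Fth1 and Ftl1 reads in each library, and right, the sum of both chains in TMM-scaled CPM, both on linear axes from 0. Points are libraries, horizontal lines group means and bars SD; the share is 89.9% to 93.9% in naive and 67.4% to 77.8% in MI libraries.

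Hmox1, which splits heme into iron, biliverdin and carbon monoxide, was at 67.5 and 62.4 CPM in naive control and 83.5, 31.1 and 35.5 CPM in naive Vegfc-deficient hearts. It was at 81.2, 144 and 134 CPM in MI control and 124, 199 and 165 CPM in MI Vegfc-deficient hearts. Within each genotype the MI libraries lay above the naive ones. Hmox1 rose in Vegfc-deficient hearts (log2 fold change 1.70, SE 0.37, edgeR adjusted p = 0.00304). In control hearts its log2 fold change was 0.88 (SE 0.41, edgeR adjusted p = 0.0973). It was called there with only the compared groups in the model (edgeR adjusted p = 0.0383), without M149 (edgeR adjusted p = 0.0215) or without M149 and M35 (edgeR adjusted p = 0.0141). Per 1000 macrophage marker reads Hmox1 gave 39.3 to 45.3 reads in naive control, 30.1 to 34.1 in MI control, 23.1 to 41.3 in naive Vegfc-deficient and 41.1 to 65.9 in MI Vegfc-deficient libraries. On that scale the MI control libraries were below the naive control ones. Of the naive Vegfc-deficient libraries, M149 gave 41.3 reads, while M150 and M34 gave 23.1 and 26.0, below the MI control ones. The summed lung epithelium and alveolar macrophage markers were also higher in naive control libraries and M149 than in M150 and M34. Their part in these ratios was not tested.

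Slc11a1, the phagosome metal transporter of macrophages and neutrophils, was at 40.4 and 50.0 CPM in naive control and 71.3, 22.1 and 25.5 CPM in naive Vegfc-deficient hearts. It was at 64.4, 126 and 94.7 CPM in MI control and 69.3, 103 and 83.0 CPM in MI Vegfc-deficient hearts. M35 lay just below M149, and the other MI libraries lay above the naive ones of their genotype. Slc11a1 rose in Vegfc-deficient hearts (log2 fold change 1.10, SE 0.41, edgeR adjusted p = 0.0410) and had a log2 fold change of 1.07 (SE 0.47, edgeR adjusted p = 0.0795) in control hearts. The call in Vegfc-deficient hearts was lost without M44, M45, M34, M150, M900 or M913 (edgeR adjusted p = 0.0542 to 0.138), with the size factors of DESeq2 (edgeR adjusted p = 0.0508) or with only these 2 groups in the model (edgeR adjusted p = 0.0715). In control hearts Slc11a1 was called by limma-voom (limma adjusted p = 0.0333), with only the compared groups in the model (edgeR adjusted p = 0.0291), without M149 (edgeR adjusted p = 0.0104) and without M149 and M35 (1.07, edgeR adjusted p = 0.00934). Per 1000 macrophage marker reads it gave 27.1 and 31.5 reads in naive control and 24.0 to 26.3 in MI control libraries. It gave 35.2, 16.5 and 18.7 reads in naive and 37.0, 28.1 and 20.7 reads in MI Vegfc-deficient libraries. On that scale the MI control libraries lay below the naive control ones. M150 and M34 lay below all MI Vegfc-deficient libraries, and M149 did not. The part of lung epithelium and alveolar macrophage markers in these ratios was not tested. Of 8 macrophage markers tested, 5 rose in control and 6 in Vegfc-deficient hearts, where 26.3% and 30.0% of all tested genes rose. In each genotype 0 of them fell.

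**Figure D4:**
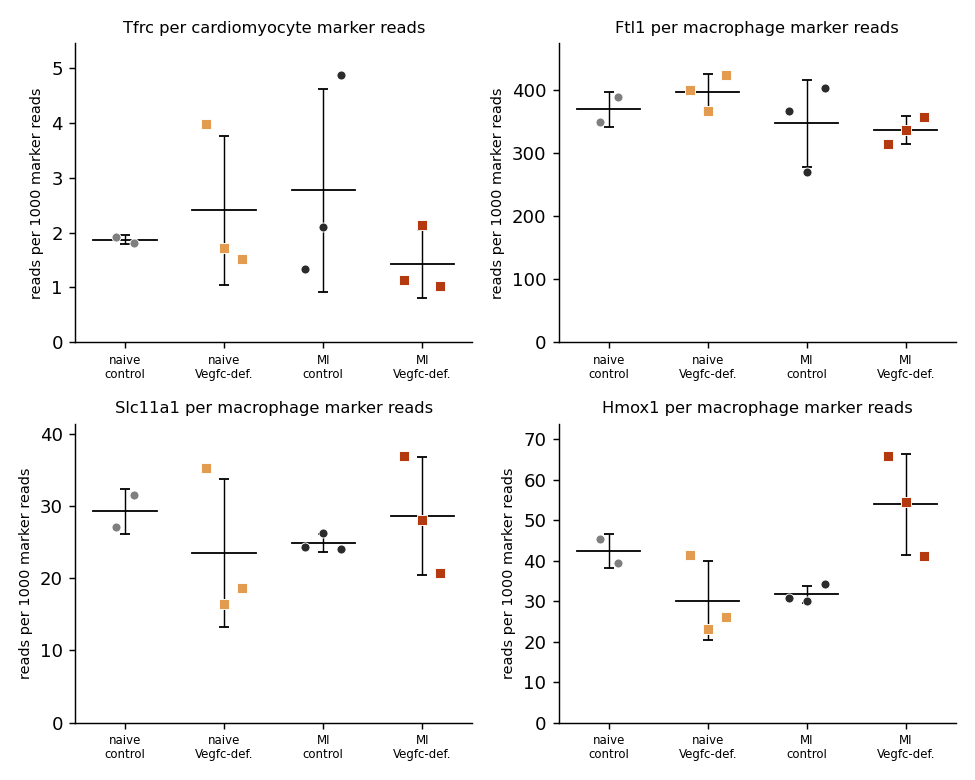
Reads of Tfrc per 1000 reads of the summed cardiomyocyte markers, and of Ftl1, Slc11a1 and Hmox1 per 1000 reads of the summed macrophage markers, in each library, on linear axes from 0. Points are libraries, horizontal lines group means and bars SD; naive and MI libraries overlap in each panel.

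Slc40a1, the only known exporter of iron from cells, was at 18.8 and 19.8 CPM in naive control and 30.9, 29.5 and 34.6 CPM in naive Vegfc-deficient hearts. It was at 56.8, 47.5 and 24.8 CPM in MI control and 126, 52.0 and 29.4 CPM in MI Vegfc-deficient hearts. M35 alone was above 100 CPM, and M913 lay below all 3 naive libraries of its genotype. The log2 fold change after MI was 1.16 (SE 0.53, edgeR adjusted p = 0.0923) in control and 1.126 (SE 0.46, edgeR adjusted p = 0.0564) in Vegfc-deficient hearts, and edgeR called neither. Slc40a1 was called in control hearts by limma-voom (1.09, limma adjusted p = 0.0476), with only the compared groups in the model (edgeR adjusted p = 0.0386), without M40 (1.44, edgeR adjusted p = 0.0485), without M35 (edgeR adjusted p = 0.0189) and without M149 and M35 (1.16, edgeR adjusted p = 0.0242). In Vegfc-deficient hearts it was called by DESeq2 (1.08, DESeq2 adjusted p = 0.0366), without the low-count filter (1.15, edgeR adjusted p = 0.0489), without M913 (1.48, edgeR adjusted p = 0.0141) and without M40 (edgeR adjusted p = 0.0415). With each library left out, its log2 fold change ran from 0.36 to 1.48 in Vegfc-deficient and from 0.91 to 1.44 in control hearts. Per 1000 macrophage marker reads Slc40a1 gave 12.4 to 25.4 reads in naive and 6.30 to 67.4 reads in MI libraries, the highest in M35.

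Ireb2 codes for iron regulatory protein 2, which cells degrade when iron is plentiful. It was at 43.9 and 40.7 CPM in naive control and 42.6, 47.3 and 49.5 CPM in naive Vegfc-deficient hearts. It was at 62.0, 72.3 and 67.6 CPM in MI control and 59.8, 64.1 and 56.0 CPM in MI Vegfc-deficient hearts. All MI libraries lay above all naive ones. Ireb2 was the member called in both genotypes that rose, with a log2 fold change of 0.67 (SE 0.13, edgeR adjusted p = 0.00188) in control and 0.37 (SE 0.11, edgeR adjusted p = 0.0161) in Vegfc-deficient hearts. The call in Vegfc-deficient hearts was lost without M149 (edgeR adjusted p = 0.0528), without M900 (edgeR adjusted p = 0.0767) or without M149 and M35 (edgeR adjusted p = 0.0779).

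Trf, the iron carrier of plasma, and Slc11a2 (DMT1), which carries iron out of endosomes, were called by edgeR in neither genotype with all libraries. Trf was at 258 and 299 CPM in naive control and 383, 209 and 180 CPM in naive Vegfc-deficient hearts, and within 213 to 267 CPM in the 6 MI libraries. Its log2 fold change was -0.26 (95% interval -0.87 to 0.35) in control and 0.04 (95% interval -0.50 to 0.59) in Vegfc-deficient hearts, and without M149 the second was 0.44 (edgeR adjusted p = 0.0331). Slc11a2 was at 18.5 to 29.6 CPM in naive and 22.7 to 33.1 CPM in MI libraries, with log2 fold changes of 0.18 (95% interval -0.28 to 0.64) and 0.34 (95% interval -0.07 to 0.76). The second was called by limma-voom (0.52, limma adjusted p = 0.0192), without M149 (0.54, edgeR adjusted p = 0.0302) and without M149 and M35 (0.60, edgeR adjusted p = 0.0259). M149 was the highest of the 5 naive libraries in Ftl1, Tfrc, Trf, Slc11a1, Slc11a2 and Hmox1, and also in the sum of lung epithelium and alveolar macrophage markers. That sum was also higher in naive control libraries (587 and 610 CPM) than in M150 and M34 (27.7 and 56.6 CPM) or the MI libraries (6.01 to 32.7 CPM). The part of these markers in member levels, and so in MI against naive comparisons of either genotype, was not tested.

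Hamp, the hepcidin gene that the liver expresses most, had 12 counts over all 11 libraries and at most 3 in any. It had 0 counts in M45, M150, M38 and M900, where 3 counts would be 0.101 to 0.363 CPM, a floor that covers counting error only. The 4 hepatocyte markers summed to at most 1.81 CPM in any library. No difference in Hamp was detectable at this depth.

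Between Vegfc-deficient and control hearts, 0 of 9 members were called by edgeR after MI and 0 of 9 in naive hearts, where 0% of all genes tested were called in either comparison. At an unadjusted p under 0.05 edgeR gave 0 members in each comparison, with 1173 and 499 of all genes, and the DESeq2 Wald test called 0 members, where it called 62 genes after MI (0.787% of those given an adjusted p) and 14 in naive hearts (0.0951%). The MI groups did not overlap for 1 member, Trf, where 12.1% of all tested genes did not overlap, and its log2 fold change was 0.19 (SE 0.25, edgeR adjusted p = 0.882, 95% interval -0.36 to 0.73). The naive groups did not overlap for 1 member, Slc40a1, where 22.4% of all tested genes did not overlap, and its log2 fold change was 0.72 (SE 0.53, edgeR adjusted p = 1, 95% interval -0.46 to 1.89).

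Fth1 after MI was 2804 ± 733 CPM (SD, n = 3) in Vegfc-deficient and 4012 ± 555 CPM (SD, n = 3) in control hearts, a log2 fold change of -0.52 (95% interval -1.16 to 0.13). Hmox1 was 163 ± 37.9 and 120 ± 33.9 CPM (SD, n = 3 each), a log2 fold change of 0.44 (95% interval -0.36 to 1.23). For Slc40a1 the log2 fold change after MI was 0.68 (95% interval -0.31 to 1.68) with all libraries and -0.08 without M35. Tfrc had one of -0.03 (95% interval -1.01 to 0.96). The response to MI itself differed between genotypes for 0 of 9 members by edgeR's interaction test, where 0% of all genes were called and 1226 had an unadjusted p under 0.05, none of them a member. DESeq2 called 0 members here too, where it called 58 genes (0.456%). The difference of responses was 0.81 (SE 0.54, edgeR adjusted p = 0.674) for Hmox1 and -0.68 (SE 0.44, edgeR adjusted p = 0.670) for Fth1, so a call in 1 genotype and not in the other is not a difference between them.

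**Figure D5:**
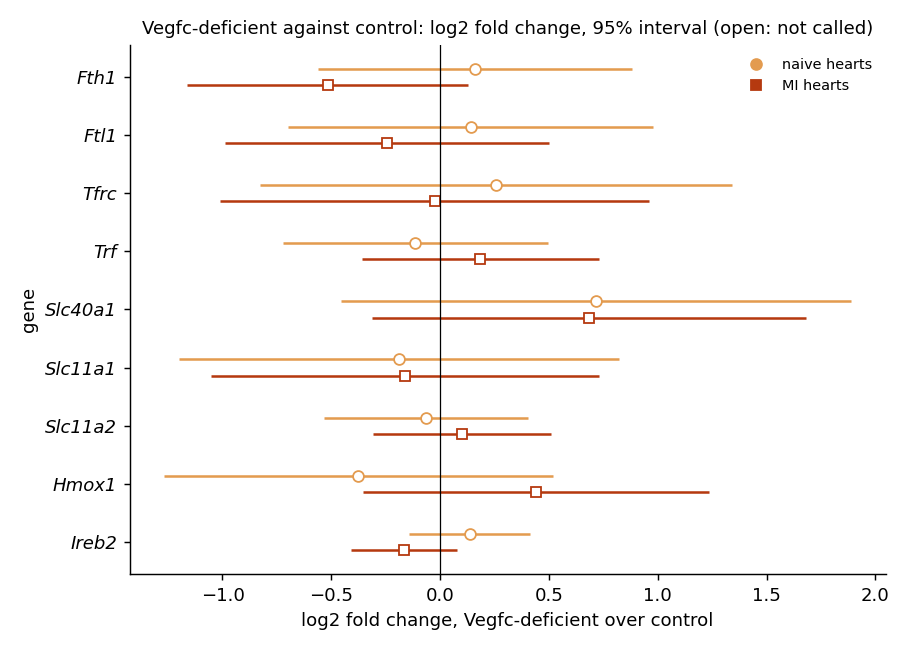
Log2 fold change of Vegfc-deficient over control hearts for the 9 tested members, with 95% intervals from edgeR's fit, in naive hearts (circles) and after MI (squares). All symbols are open because no member was called, and each interval includes 0.

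Over the 11 libraries, the genes whose log2 CPM ran most alike with that of a member were named as a description, since all of them share the libraries and the step from naive to MI. For Hmox1 they were Dennd1a (Pearson r = 0.991), Sept9 (0.986) and Lasp1 (0.985), and for Slc11a1 they were Shtn1 (0.988), Gpr35 (0.987) and Csf3r (0.986), a receptor of neutrophils. For Fth1 they were Sephs2 (0.967), Psmd8 (0.961) and Gsto2 (0.957), and for Slc40a1 they were Ms4a1 (0.900), Pld5 (0.896) and Ccbe1 (0.869). Ms4a1 codes for the B-cell protein CD20. Csf3r is among the 6 neutrophil markers listed, of which 5 were tested. After MI 0 of these 5 were called in control hearts (median log2 fold change 2.63). In Vegfc-deficient hearts 1 rose (median -0.22), where 30.0% of all tested genes rose.

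Around these members, 45 other genes of iron handling were listed by role, and 43 were tested. After MI 11 rose and 14 fell in control hearts, where 26.3% of all tested genes rose and 24.1% fell, and 13 rose and 17 fell in Vegfc-deficient hearts, where 30.0% rose and 27.7% fell. Their median log2 fold change was -0.24 in each genotype, against 0.13 and 0.10 over all genes. Of 10 genes of mitochondrial iron and heme synthesis, 7 fell in control and 9 in Vegfc-deficient hearts, while Slc25a37, the mitochondrial iron importer mitoferrin 1, rose in both (0.70 and 0.77). Iscu, the scaffold on which iron-sulphur clusters are built, was at 114 ± 2.10 CPM (SD, n = 2) in naive and 45.6 ± 4.42 CPM (SD, n = 3) in MI control hearts, a log2 fold change of -1.32. Glrx5, which passes such clusters on, was at 179 ± 34.2 and 43.98 ± 7.25 CPM in naive and MI Vegfc-deficient hearts (SD, n = 3 each), a log2 fold change of -2.03. The cardiomyocyte marker sum was lower in the same libraries. Of 5 tested red cell markers 0 were called in control hearts (median log2 fold change -0.74), while 5 fell in Vegfc-deficient hearts (median -3.02). One of these, Alas2, the red cell enzyme that starts heme synthesis, is among the 9 genes that fell there (log2 fold change -2.33, edgeR adjusted p = 0.00345). In control hearts Alas2 was not called (log2 fold change -0.95). Between genotypes 0 of the 5 red cell markers were called after MI, in naive hearts or for the difference of responses. The part of either marker list in the falls of mitochondrial iron and heme synthesis genes was not tested.

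Of 10 genes of uptake and reduction, 6 rose and 1 fell in control hearts and 7 rose in Vegfc-deficient hearts, where 26.3% and 30.0% of all tested genes rose. Steap2, a metalloreductase, was at 2.12 ± 1.23 CPM (SD, n = 2) in naive and 18.1 ± 4.35 CPM (SD, n = 3) in MI control hearts, a log2 fold change of 3.10. Slc39a8 (ZIP8), a metal importer, was at 3.55 ± 0.0239 CPM (SD, n = 2) and 15.6 ± 5.34 CPM (SD, n = 3) in the same groups. Its relative Slc39a14 (ZIP14) was at 32.9 ± 1.29 CPM in naive and 63.5 ± 10.2 CPM in MI Vegfc-deficient hearts (SD, n = 3 each), a log2 fold change of 0.95 where it rose, and had one of 0.30 in control hearts, where it was not called. Tfr2, another transferrin receptor, rose in both genotypes, with log2 fold changes of 2.84 (SE 0.65) and 3.63 (SE 0.62), where Tfrc fell. Levels of Tfr2 are not given here, so its reads cannot be set against those of Tfrc.

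The export ferroxidases split in both genotypes, with hephaestin (Heph) higher after MI (1.54 in control and 1.49 in Vegfc-deficient hearts) and ceruloplasmin (Cp) lower (-0.82 and -0.58). Of 5 genes of hepcidin control, Hfe2, which codes for hemojuvelin, fell from 413 ± 5.82 CPM (SD, n = 2) to 31.2 ± 22.8 CPM (SD, n = 3) in control hearts. The cardiomyocyte marker sum was lower in the same MI libraries, and its part in this fall was not tested. Hfe fell and Erfe rose in both genotypes, and Bmp6 and Tmprss6 were not called. Erfe rested on few reads, at most 0.244 CPM in any naive library and 0.353 to 1.97 CPM in the MI libraries. A level of 3 counts was 0.101 to 0.363 CPM over the libraries. Of 11 genes of heme handling, 2 rose and 3 fell in control hearts and 3 rose and 5 fell in Vegfc-deficient hearts. Among all tested genes 26.3% rose and 24.1% fell in control and 30.0% rose and 27.7% fell in Vegfc-deficient hearts, so the numbers that rose are near or below the background. Haptoglobin (Hp) was at 6.45 ± 4.40 CPM in naive and 46.8 ± 16.2 CPM in MI Vegfc-deficient hearts (SD, n = 3 each), and the scavenger receptor Lrp1 rose in both genotypes (1.08 and 1.31). Hmox2, the constitutive heme oxygenase, fell in both (-0.77 and -0.45), opposite in sign to Hmox1. The iron sensors Aco1 and Fbxl5 and the ferritin partners Pcbp1, Pcbp2 and Ncoa4 were not called in either genotype. Hephl1 and Ftmt failed the filter. Between genotypes edgeR called 0 of the 43 after MI, in naive hearts or in the interaction, and DESeq2, which called 0.787% of genes given an adjusted p after MI, called 2 of them there, Slc39a14 (log2 fold change 0.61, DESeq2 adjusted p = 0.0495) and Blvrb (-0.62, DESeq2 adjusted p = 0.0228).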

How the data were processed

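The 11 libraries were TruSeq Stranded mRNA libraries of mouse left ventricle, and the number of reads counted on each Ensembl gene was deposited by the authors as raw counts, without normalization. Per the submitters' processing notes the tools were cutadapt 1.13, STAR, HTSeq 0.6.1p1 and DESeq2 1.14.1 with build mm10, while the strand setting and the annotation release are not given in the sources used here. Identifiers were named with GENCODE M21, which holds 24942 of the 25006. Libraries were grouped by the genotype and disease labels, and per the study each library was from a separate animal.

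Counts were scaled by TMM and tested with edgeR 4.0.16 (glmQLFit, glmQLFTest, filterByExpr) in R 4.3.3, in 1 fit with group means and no covariate. The script was tested on simulated data. DESeq2 1.42.0 and limma 3.58.1 served as alternatives, with other scalings, other filters and each library left out. Standard errors and 95% intervals follow from the quasi-likelihood F. Transcript lengths are those of the APPRIS principal coding transcript. A floor of 3 counts is used for a count of 0, and covers counting error only.

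The genes named were the 10 members, at most 3 genes per role of the wider list with the smallest p in MI against naive hearts, and the 3 genes most alike each of 4 members. Other genes of that list, and the reads per 1000 marker reads, were picked with their values in view. The members and lists were chosen with earlier results of these data known. Of 50 listed markers 49 were found.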

Additional observations from a re-analysis of the deposited data

How the results depend on the processing

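The fall of Tfrc in both genotypes and of Fth1 in Vegfc-deficient hearts and the rises of Ireb2 in control hearts and of Hmox1 in Vegfc-deficient hearts were called in all runs of the 3 tools, of the scalings and filters and of each library left out. Counts of members called in control hearts, 3 by edgeR, were 5 with limma-voom, 6 with only the compared groups in the model, 6 without M149 and M35, and 2 to 5 with each library left out. In Vegfc-deficient hearts the 5 members called became 3 at an adjusted p under 0.01, and 3 to 7 with each library left out. The wider list gave 15 to 26 calls in control hearts with each library left out, and 2 after MI between genotypes by DESeq2. The cause of these changes was not tested. All values that changed sign were differences that were not called with all libraries, nor under the setting that changed the sign. With DESeq2, or with its size factors in edgeR, Trf after MI in Vegfc-deficient hearts was -0.012, and it ran from -0.16 to 0.44 with each library left out. Between genotypes after MI, the ranges with each library left out were -0.51 to 0.052 for Ftl1, -0.61 to 0.47 for Tfrc, -0.080 to 1.07 for Slc40a1, -0.38 to 0.12 for Slc11a1 and -0.031 to 0.23 for Slc11a2. In naive hearts they were -0.087 to 0.29 for Ftl1, -0.13 to 0.50 for Tfrc, -0.52 to 0.086 for Trf, -0.92 to 0.094 for Slc11a1 and -0.26 to 0.089 for Slc11a2. For the difference of responses they were -0.87 to 0.22 for Tfrc, -0.80 to 0.36 for Slc40a1 and -0.26 to 0.76 for Slc11a1. Without M149 and M35, Ftl1 was 0.052 between genotypes after MI, -0.088 in naive hearts and 0.14 for the difference of responses, Slc40a1 was -0.079 after MI and Tfrc was -0.13 in naive hearts. With limma-voom Slc11a1 was 0.0055 after MI and Tfrc was -0.0018 in naive hearts. Adding the ferritin copies moved no call of Fth1 or Ftl1 and no count of members called. No paired analysis was possible because the groups share no replicate numbers. With 2 naive control libraries, leaving out 1 leaves a lone library that is assumed to vary like the other groups.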
